A study of Mus musculus with 10 samples.

Results

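The core circadian clock genes were followed in cultured mouse adipose stem and progenitor cells (ASPCs), as the 10 genes Arntl, Clock, Npas2, Per1, Per2, Per3, Cry1, Cry2, Nr1d1 and Nr1d2. They were chosen by gene symbol, and all 10 were found among the 25229 rows of the count table and passed the filter on low counts that left 14251 genes. CD45-CD31-Pdgfra+ cells of WT mice had been sorted from the stromovascular fraction of perigonadal white adipose tissue (gWAT), grown to confluence without passaging, and given 100 nM FICZ or DMSO. FICZ is a tryptophan photoproduct that binds the aryl hydrocarbon receptor (AHR), and DMSO is its vehicle. Lysates were made 6 hr later, and RNA was sequenced from 5 libraries of each arm, numbered 1 to 5 in both. The age and sex of the mice, the clock hour of lysis, the time since the last medium change, and what a shared number marks were not given in the sources used here. Nothing in the labels says that libraries of an arm came from separate mice, so p-values measure only the spread between these libraries, which may be technical.

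The mammalian clock is a transcriptional feedback loop that runs in most cells, including those of adipose tissue. BMAL1 (encoded by Arntl) pairs with CLOCK or NPAS2 and activates genes through E-box elements, among them the Per and Cry genes, whose proteins return to the nucleus and repress that activation. A second loop joins the nuclear receptors REV-ERBα and REV-ERBβ (Nr1d1 and Nr1d2), which repress Arntl, to the ROR receptors, which activate it at the same element. The proteins BMAL1, CLOCK, NPAS2, AHR and the AHR partner ARNT belong to one family of bHLH-PAS transcription factors. In culture, cells keep their own rhythms, which a medium change or serum can set to a common phase.

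None of the 10 clock genes differed between FICZ and DMSO in edgeR's quasi-likelihood test, and each had an adjusted p of 0.999. Per3 differed instead between replicate numbers, with the same order at the top in both arms. It was 2.05-fold higher in number 5 than in number 3 (mean of both arms), and was the 1 member past the threshold of the test across numbers (edgeR, adjusted p = 0.0183), which 1.80% of all genes passed. That call was lost in 4 of the 5 fits that left out 1 pair, but without pair 1, 2 or 4 no gene of the whole table passed. DESeq2 called 4 members, against 11.2% of all genes it gave an adjusted p. Arntl ran the opposite way, 1.73-fold higher in number 3 than in number 5, with an adjusted p of 0.0633. Dbp, a clock output gene outside the 10, showed a 2.75-fold range between the same 2 numbers as Per3.

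Each library held between 38328611 and 50210111 counts, with a median of 44787417 in DMSO and 42897708 in FICZ. Values are given as CPM, which are counts scaled to a common library size with TMM factors. A floor of 3 counts corresponds to 0.0597 to 0.0783 CPM, which covers counting error only, and the lowest count of a member in any library was 62. The 8 ASPC markers, Pdgfra of the sort among them, summed to between 9330 and 14000 CPM, with Col3a1 the most abundant. Immune markers summed to between 8.06 and 23.3 CPM (Cd68 the most abundant, Cd3e and Cd79a under the filter) and endothelial markers to between 8.66 and 15.7 CPM (Kdr the most abundant). Mesothelial markers summed to between 63.7 and 84.9 CPM, and markers of dividing cells to between 1490 and 2100 CPM, with Mki67 the most abundant. Nearly all of the mesothelial sum was Wt1, at a mean of 67.1 CPM over the 10 libraries. The other mesothelial markers had means between 0.475 (Msln) and 2.04 CPM (Upk3b), so that sum is in effect the level of 1 gene.

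One library stood apart from the other 9. DMSO replicate 5 lay a median of 0.287 log2 units from its arm mean, against 0.089 to 0.151 in the others, and had 1174 genes more than 1 log2 unit away, against 84 to 412. It also held the most Alb, the albumin gene of hepatocytes, with 232987 counts against 29599 to 75521. Hepatocyte markers summed to 3590, 1500, 1710, 3540 and 8630 CPM in DMSO replicates 1 to 5, and to 2110, 1840, 2190, 1620 and 1990 CPM in FICZ replicates 1 to 5. The test across numbers is given without that library for the clock genes, D-box factors and accessory factors that were highest or lowest in number 5 of both arms, and the part of hepatocyte transcripts in them was not tested.

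Per kilobase of exon, the scale on which genes can be compared, Nr1d1 had the highest level at 15.1 ± 2.04 CPM (SD, n = 10 libraries). Nr1d2 followed at 11.8 ± 2.31, Clock at 8.69 ± 1.2 and Arntl at 7.12 ± 1.38 CPM per kilobase. Cry2 was at 4.43 ± 0.256, Cry1 at 3.25 ± 0.527, Per3 at 2.96 ± 0.96 and Per1 at 2.67 ± 0.321 CPM per kilobase. Per2 was at 0.566 ± 0.11 and Npas2 at 0.505 ± 0.0986, so the partner of BMAL1 with the higher level in these cells was Clock. The ranges of neighbours in this order overlapped in each case except between Per1 and Per2. In bulk RNA, fewer cells expressing a gene and less RNA per cell cannot be told apart.

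**Figure D1:**
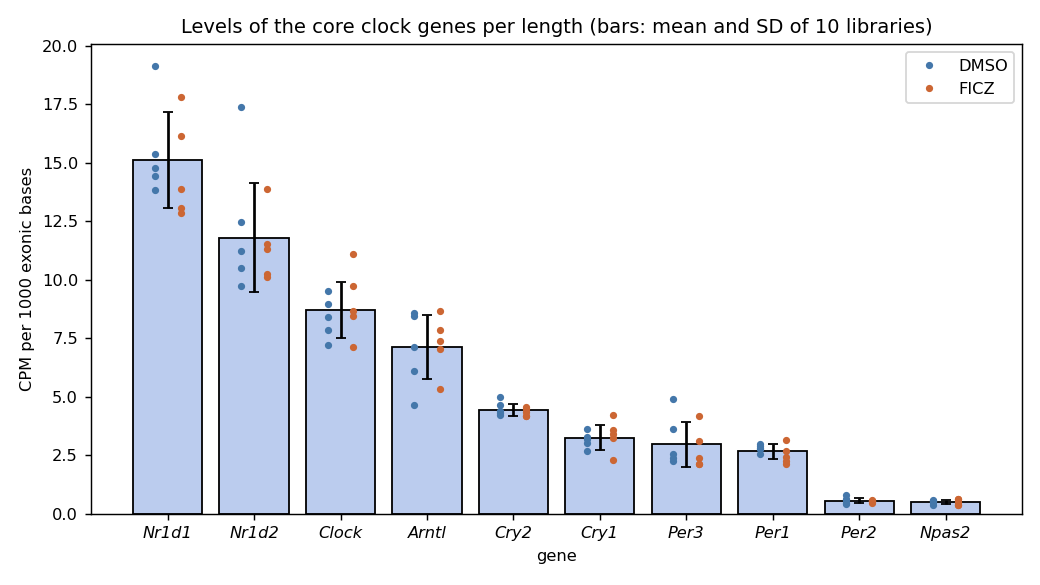
Level of the 10 core clock genes per kilobase of exon (CPM per kilobase, linear axis from 0), with 1 point per library and bars for the mean and SD of the 10 libraries. Nr1d1, at a mean of 15.1, is the highest and Npas2, at 0.505, the lowest, and only Per1 and Per2 are neighbours without overlap.

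Arntl lies at 113207465 to 113314126 of chromosome 7 (GRCm38, which mm10 represents, as for all coordinates here) and encodes BMAL1, the obligate partner of the activating arm. It was at 26.1, 22.0, 26.5, 18.8 and 14.4 CPM in DMSO replicates 1 to 5 and at 24.2, 22.8, 26.8, 21.8 and 16.5 CPM in FICZ replicates 1 to 5. In both arms replicate 3 was the highest and replicate 5 the lowest, and the arms overlapped throughout. The difference between arms was 0.06 log2 units (SE 0.17). Across numbers the F statistic was 13.96 with an unadjusted p of 0.0017, which did not pass after adjustment over all genes (edgeR, adjusted p = 0.0633, and 0.0618 without DMSO replicate 5). Arntl did pass in DESeq2 (adjusted p = 0.000538) and with the level of Alb as a covariate in edgeR (0.0157), fits in which 11.2% and 12.5% of all genes passed. The second of its RefSeq promoter windows (GRCm38.p6, chr7:113207261-113207560, + strand) is shown because Arntl is the textbook target of the REV-ERB and ROR receptors. The letters TAGGTCA of their element, in capitals, occur 30 bases after the start.
Arntl: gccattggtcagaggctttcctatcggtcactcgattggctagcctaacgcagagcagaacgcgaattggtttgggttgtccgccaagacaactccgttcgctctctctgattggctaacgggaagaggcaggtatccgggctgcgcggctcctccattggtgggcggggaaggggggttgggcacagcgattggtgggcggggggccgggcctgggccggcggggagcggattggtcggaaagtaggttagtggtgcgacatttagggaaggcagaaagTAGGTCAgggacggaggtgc

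Clock (chromosome 5, 76209868 to 76304792) encodes the usual partner of BMAL1 and was the member with the highest CPM. Its levels were 71.4, 88.9, 94.3, 77.7 and 83.6 CPM in DMSO replicates 1 to 5 and 70.8, 96.5, 110, 86.0 and 83.7 CPM in FICZ replicates 1 to 5. Replicate 3 was again the highest in both arms, whereas the lowest was replicate 1. The range between number means was 0.52 log2 units and missed the threshold (edgeR, adjusted p = 0.119), but passed in DESeq2 (0.0248), with the Alb covariate (0.0297) and without DMSO replicate 5 (0.0484). Npas2 (chromosome 1, 39193731 to 39363236), which can stand in for Clock, had few counts, between 62 and 119 per library. It was at 1.63, 2.23, 2.18, 2.26 and 2.44 CPM with DMSO and at 2.15, 1.68, 2.67, 2.67 and 1.5 CPM with FICZ, in order of number. DMSO replicate 5 was the highest of its arm and FICZ replicate 5 the lowest of its own, and the numbers did not pass the test (edgeR, adjusted p = 0.760).

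**Figure D2:**
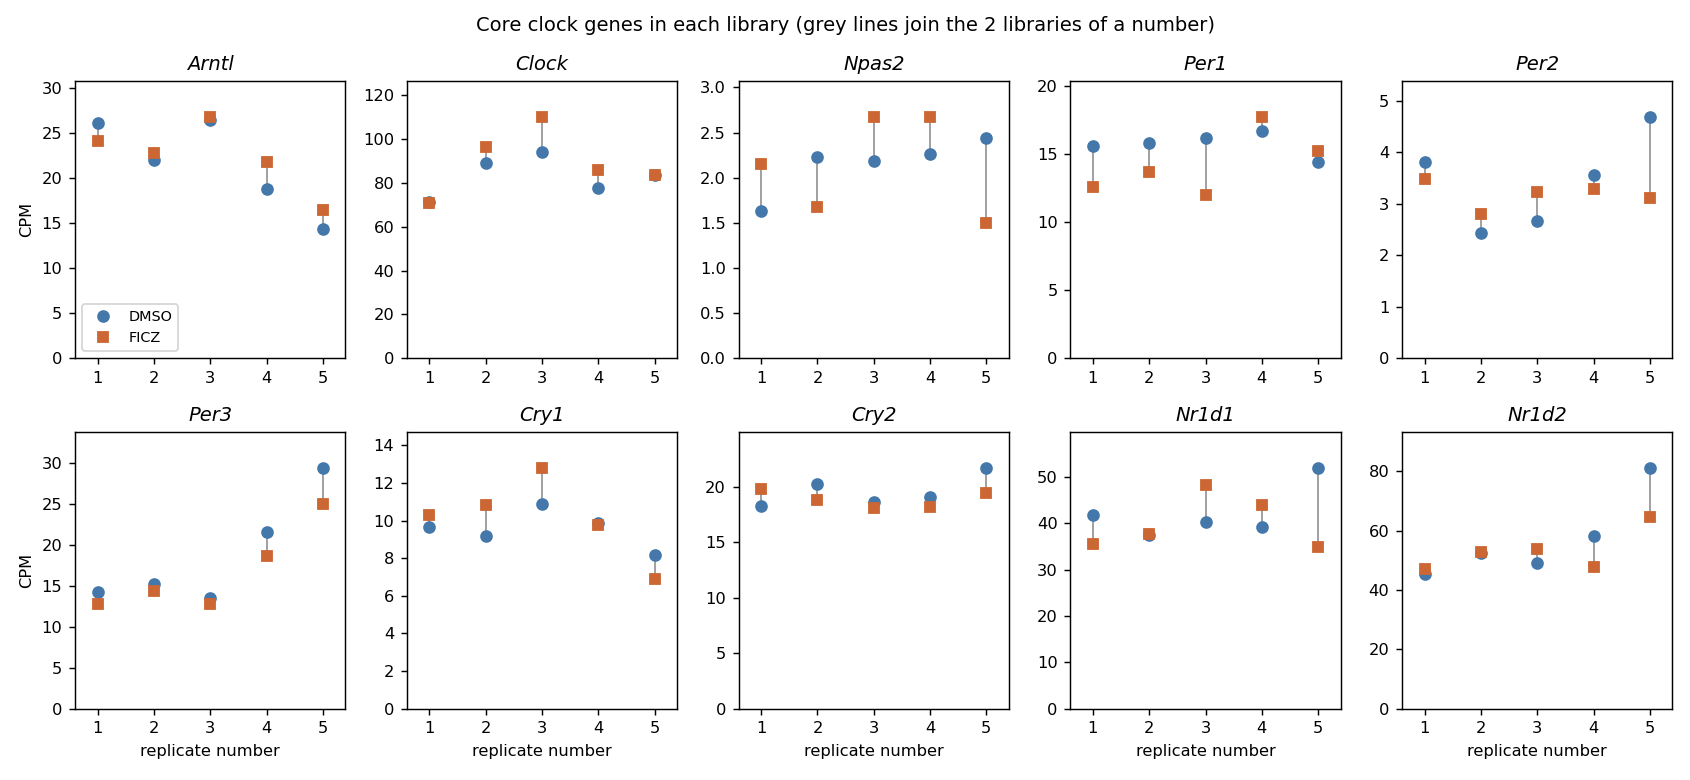
Level of each core clock gene (CPM, one panel per gene with its own axis) in DMSO (circles) and FICZ (squares) against replicate number, with a grey line joining the 2 libraries of a number. Per3 rises above 18 CPM in numbers 4 and 5 of both arms, while Arntl is lowest in number 5 of both.

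Of the period genes, which encode repressors of the loop, Per3 passed the test across numbers and Per1 and Per2 did not. Per3 (chromosome 4, 151003652 to 151044665, minus strand) was at 14.2, 15.2, 13.5, 21.6 and 29.4 CPM in DMSO replicates 1 to 5. With FICZ it was at 12.8, 14.4, 12.8, 18.7 and 25.0 CPM in replicates 1 to 5. Replicates 4 and 5 lay above replicates 1 to 3 in both arms, and the difference between the 2 libraries of a number had a mean absolute deviation of 0.06 log2 units over the pairs, against a range of 1.04 between number means. The F statistic across numbers was 40.16 (edgeR, adjusted p = 0.0183). Without DMSO replicate 5 the adjusted p was 0.0121. It was 0.0635, 0.0770, 0.0795 and 0.106 when pair 1, 2, 3 or 4 was left out, and 0.0421 without pair 5, so the call was lost in 4 of these 5 fits. No gene of the whole table passed without pair 1, 2 or 4, while 13 passed without pair 3 and 433 without pair 5. Per3 was lower with FICZ in all 5 pairs, by between 0.08 and 0.23 log2 units. In a model with number as a block the difference was -0.15 log2 units (SE 0.06, edgeR, unadjusted p = 0.0501, adjusted p = 0.929), and within pairs 1 to 4 alone its mean was -0.13. In the fit without the block that left out DMSO replicate 5 but kept FICZ replicate 5, it was 0.05.

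The promoter window of Per3 is shown because it held 2 copies of the D-box TTATGTAA, the element bound by DBP, TEF and HLF, at 205 and 158 bases before the start. It spans chr4:151044616-151044915 on the minus strand (RefSeq, GRCm38.p6), and the capitals mark the D-boxes and, 15 bases before the start, the AHR core GCGTG on the other strand (CACGC). A D-box was found in 0.94% of the 32851 windows in the table, and 2 or more in 7 of them.
Per3: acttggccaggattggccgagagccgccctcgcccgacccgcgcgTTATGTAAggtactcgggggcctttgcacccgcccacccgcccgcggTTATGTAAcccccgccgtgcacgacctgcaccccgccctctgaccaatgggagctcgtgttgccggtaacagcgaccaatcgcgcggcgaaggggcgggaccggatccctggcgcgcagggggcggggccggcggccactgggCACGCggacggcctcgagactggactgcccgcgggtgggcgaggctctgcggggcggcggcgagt

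Per1 (chromosome 11, 69095217 to 69109960), the period gene that responds first to cAMP and glucocorticoid signals, was at 15.6, 15.8, 16.2, 16.7 and 14.4 CPM with DMSO. In FICZ replicates 1 to 5 it was at 12.6, 13.7, 12.0, 17.7 and 15.2 CPM. Replicate 4 was the highest in both arms, the lowest was replicate 5 with DMSO and replicate 3 with FICZ, and the adjusted p across numbers was 0.590 (edgeR). Per2 (chromosome 1, 91415982 to 91459324), with 116 to 228 counts per library, was at 3.8, 2.43, 2.66, 3.55 and 4.68 CPM with DMSO and at 3.47, 2.8, 3.23, 3.29 and 3.12 CPM with FICZ. Replicate 2 was the lowest in both arms, but DMSO replicate 5, the highest library, had a FICZ partner below the other FICZ libraries except replicate 2 (edgeR, adjusted p across numbers = 0.489).

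The cryptochromes Cry1 and Cry2 encode the main repressors of CLOCK and BMAL1. Cry1 (chromosome 10, 85131700 to 85185064) was at 9.68, 9.18, 10.9, 9.86 and 8.17 CPM with DMSO and at 10.3, 10.8, 12.8, 9.74 and 6.89 CPM with FICZ. As with Arntl, replicate 3 was the highest and replicate 5 the lowest in both arms, with a 1.57-fold range between number means (edgeR, unadjusted p = 0.0419, adjusted p = 0.235, and 0.0987 without DMSO replicate 5). It passed with the Alb covariate (adjusted p = 0.0367). Cry2 (chromosome 2, 92403646 to 92434043) was the steadiest member, at 18.3, 20.2, 18.6, 19.1 and 21.7 CPM with DMSO and at 19.8, 18.8, 18.1, 18.2 and 19.4 CPM with FICZ. Its highest library was 1.2-fold above its lowest, and it passed neither the test between arms nor that across numbers (edgeR, adjusted p = 0.999 and 0.756).

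Nr1d2 and Nr1d1, the REV-ERB genes, had different orders of libraries. Nr1d2 (chromosome 14, 18204054 to 18239127) was at 45.4, 52.4, 48.9, 58.1 and 81.1 CPM with DMSO and at 47.1, 52.8, 53.7, 47.7 and 64.7 CPM with FICZ. Replicate 5 was the highest and replicate 1 the lowest in both arms (edgeR, unadjusted p across numbers = 0.0144, adjusted p = 0.147, and 0.242 without DMSO replicate 5). It passed in DESeq2 (adjusted p = 0.0297) and with the Alb covariate (0.0365). Nr1d1 (chromosome 11, 98767932 to 98775333) was at 41.8, 37.6, 40.2, 39.3 and 52.0 CPM with DMSO and at 35.5, 37.7, 48.4, 43.9 and 35.0 CPM with FICZ. Here replicate 5 was the highest with DMSO and the lowest with FICZ (edgeR, adjusted p across numbers = 0.804). On the opposite strand Thra shares 263 of the 2721 exon bases of Nr1d1, and since the strand used in counting was not given, reads there cannot be assigned with certainty.

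The first comparison asked whether AHR activation by FICZ changed the clock genes at 6 hr. It called 0 of the 10 members, against 0.0211% of all genes tested, and also 0 of 10 with the replicate block, against 0.0561%. The log2 fold changes lay between -0.17 for Per3 and 0.10 for Clock, with 3 positive and 7 negative and a median of -0.06, beside 0.01 over all genes tested. That median was 0.03 without DMSO replicate 5 and also 0.03 with the Alb covariate. At an unadjusted p of 0.05 the count was still 0, where 4.82% of all genes passed, and DESeq2 called 0 with and without the replicate block. Exact two-sided permutation tests of log2 CPM over all arrangements of the libraries gave unadjusted p-values between 0.183 (Per1) and 0.897 (Npas2), with 0.00794 the smallest possible. No member had arms that did not overlap, against 0.470% of all genes. Only Per3 moved in one direction in all 5 pairs, where 7.12% of all genes did. Leaving out DMSO replicate 5 turned the sign of 6 members (Arntl, Npas2, Per2, Per3, Nr1d1 and Nr1d2), all within 0.06 log2 units of 0, in a fit that kept FICZ replicate 5. A p above the threshold does not show that the arms were equal, and the standard errors give the precision of each difference, from 0.08 for Cry2 to 0.25 for Per3 without the block and from 0.06 for Clock to 0.20 for Npas2 with it.

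**Figure D3:**
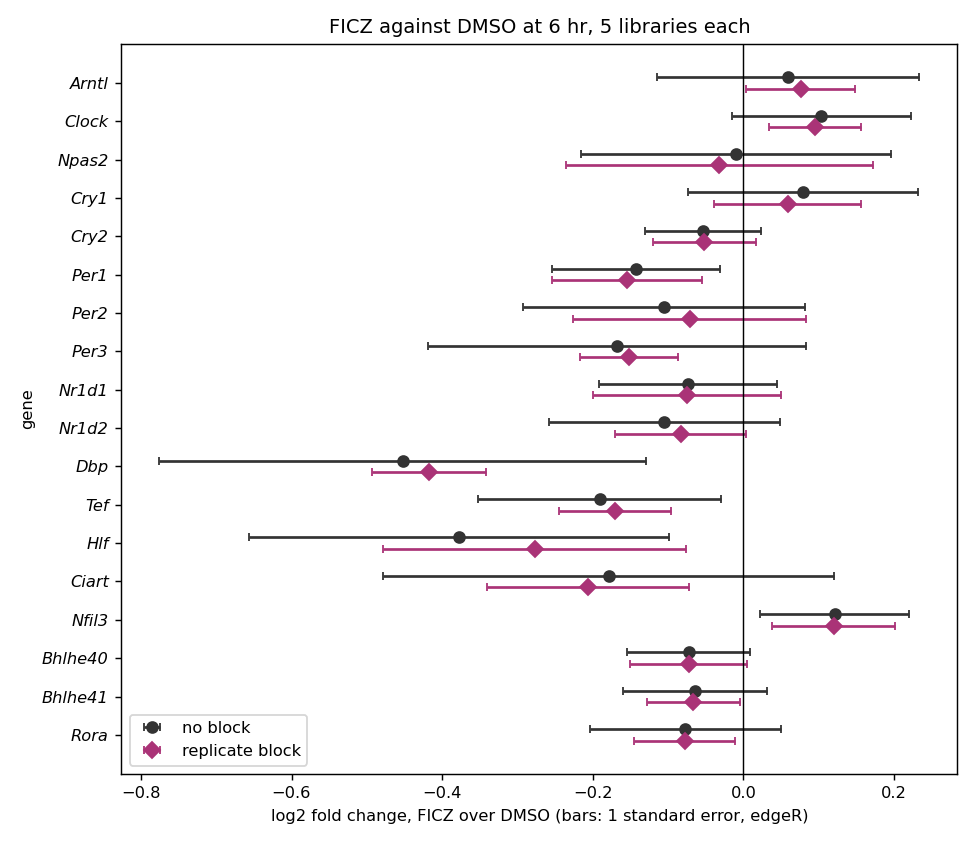
Log2 fold change of FICZ over DMSO for the core clock genes and companion genes, with and without the replicate number as a block, and bars of 1 standard error. The 10 members lie between -0.17 and 0.10 without the block, and Dbp has the most negative value among the clock output factors shown.

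The second comparison asked whether the 2 arms shared differences between the replicate numbers. Of the 10 members, 1 passed the threshold (Per3), against 1.80% of all genes, and 5 passed at an unadjusted p of 0.05 (Per3, Arntl, Clock, Nr1d2 and Cry1), against 19.6%. The same number was the highest in both arms for 6 members, against 35.1% of all genes, and the lowest in both for 5, against 31.5%. Both held for 4 members (Arntl, Clock, Cry1 and Nr1d2), against 14.0% of all genes. Number 3 was the highest in both arms for Arntl, Clock and Cry1, and number 5 for Per3 and Nr1d2. Number 5 was the lowest in both arms for Arntl and Cry1. Counted for number 5 alone, 2 of 10 members were highest there in both arms, against 12.2% of all genes, and 2 of 10 were lowest there, against 10.8%. Without DMSO replicate 5 the members past the threshold were Per3 (edgeR, adjusted p = 0.0121) and Clock (adjusted p = 0.0484), against 5.54% of all genes in that fit. Without pair 1, 2 or 4 no gene of the whole table passed, and without pair 3 none of the members did.

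**Figure D4:**
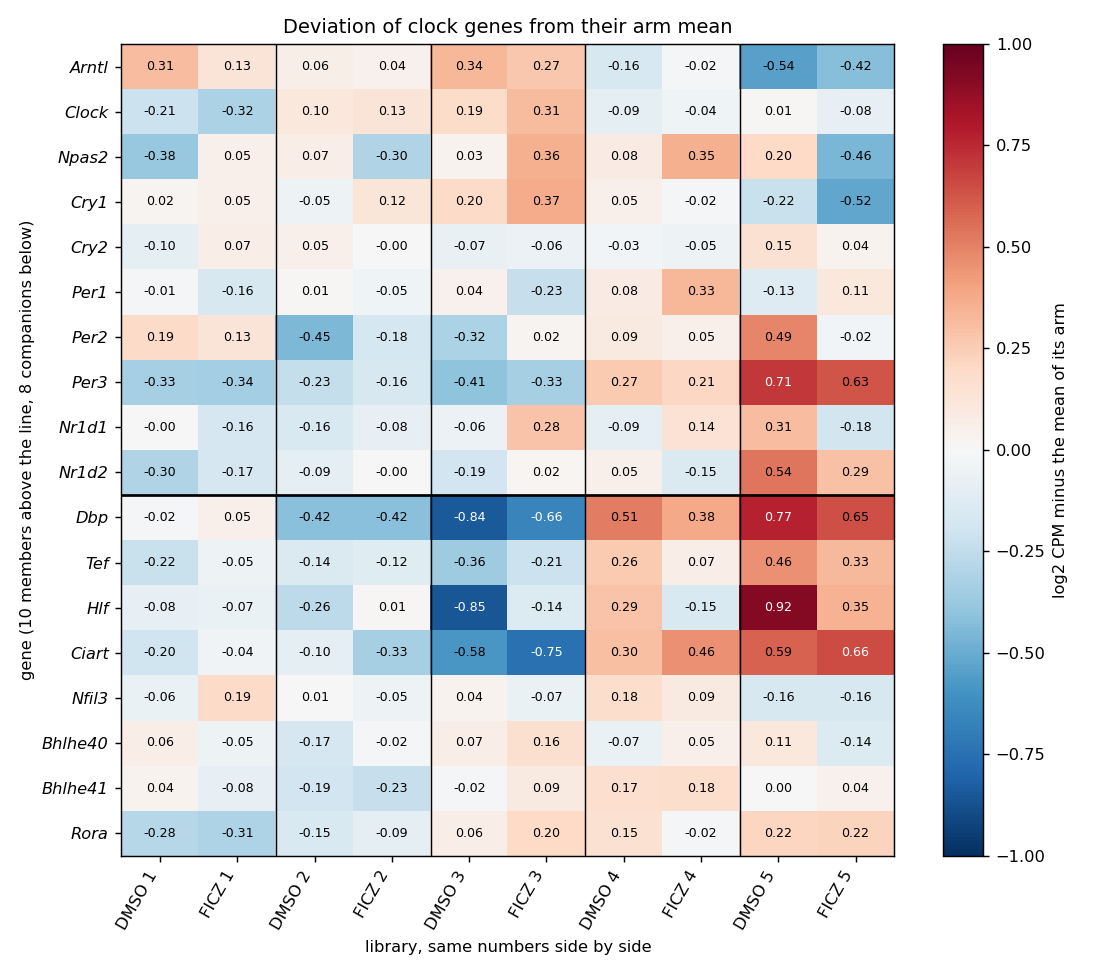
Deviation of each gene from its own arm mean (log2 CPM) in the 10 libraries, for the core clock genes and their companions. Per3, Dbp, Tef and Ciart are above their arm means in number 5 of both arms, and Arntl and Cry1 are below theirs.

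**Figure D5:**
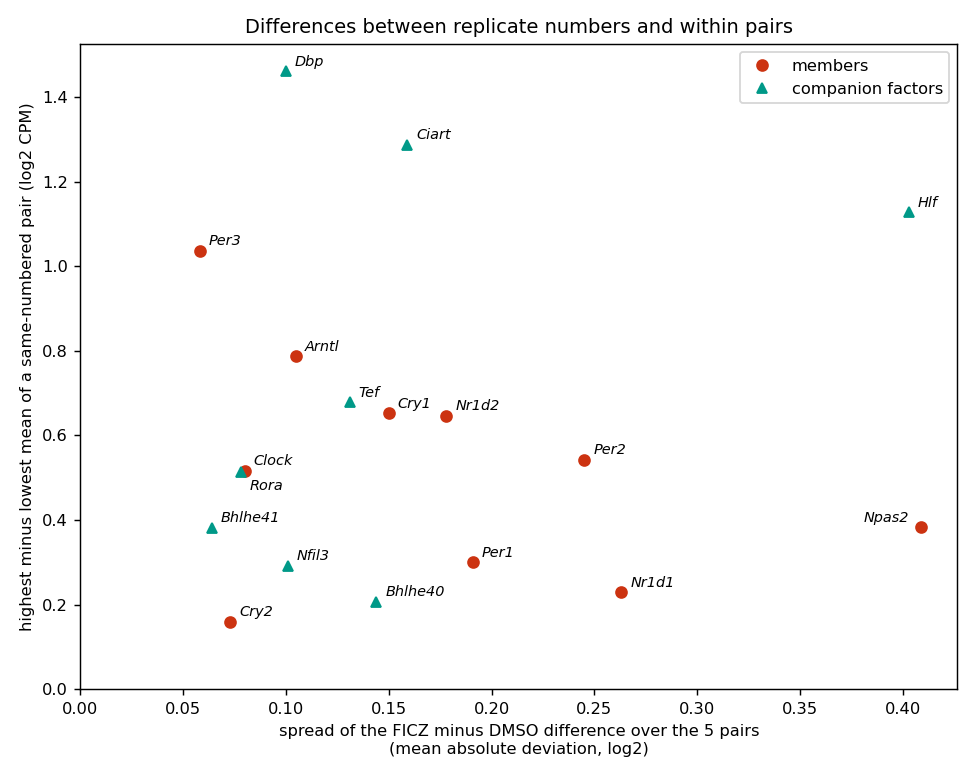
Range between the 5 number means (log2 units) against the mean absolute deviation of the FICZ minus DMSO difference over the 5 pairs (log2 units), with 1 point per gene. Per3 and Dbp combine a range above 1 with a deviation within pairs of at most 0.1, whereas Npas2 and Nr1d1 have deviations larger than their ranges.

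The D-box factors were the companions nearest to the loop, since DBP, TEF and HLF are direct outputs that activate D-box genes such as Per3. Dbp (chromosome 7, 45705088 to 45710203), a standard read-out of clock phase, was at 16.8, 12.8, 9.53, 24.3 and 29.2 CPM in DMSO replicates 1 to 5. In FICZ replicates 1 to 5 it was at 13.3, 9.57, 8.07, 16.7 and 20.1 CPM. Numbers 5 and 4 were the highest and number 3 the lowest in both arms, and Dbp passed the test across numbers (F = 49.83, edgeR, adjusted p = 0.0183), also without DMSO replicate 5 (adjusted p = 0.00612). Leaving out pair 1, 2, 3 or 4 gave 0.0503, 0.0652, 0.0789 and 0.0921, and leaving out pair 5 gave 0.0145. In the fits without pair 1, 2 or 4 no gene of the whole table passed, against 13 without pair 3 and 433 without pair 5. Exons of Sphk2 on the opposite strand cover 29.3% of the exon bases of Dbp, and 16.2% of its 50-base transcript words occur in other genes, so its counts are less certain. Sphk2 itself stayed between 28.2 and 33.6 CPM and did not pass the test across numbers (edgeR, adjusted p = 0.617).

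Dbp was lower with FICZ in all 5 pairs, by between 0.24 and 0.54 log2 units, a pattern that 2.81% of all genes showed. Without the block its log2 fold change was -0.45 (SE 0.32, edgeR, adjusted p = 0.999). With the block it was -0.42 (SE 0.08), with an unadjusted p of 0.000802 and an adjusted p of 0.474 over all genes, and DESeq2 with the block gave an adjusted p of 0.0770. Within pairs 1 to 4 alone the mean difference was -0.38 log2 units. In the fits without the block it was -0.23 without DMSO replicate 5, whose FICZ partner stayed in, and -0.01 with the level of Alb in the model. The difference did not pass the threshold in any fit that was run.

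Tef (chromosome 15, 81802421 to 81826863) was at 57.8, 61.0, 52.6, 80.6 and 92.5 CPM with DMSO and at 57.7, 54.9, 51.6, 62.7 and 75.0 CPM with FICZ. Its order of numbers had 5 at the top and 3 at the bottom in both arms, as for Dbp, without passing the threshold (edgeR, adjusted p = 0.0834, and 0.0720 without DMSO replicate 5). Tef passed in DESeq2 (adjusted p = 0.00229) and with the Alb covariate (0.0267). Hlf, with 114 to 439 counts, was at 4.48, 3.96, 2.61, 5.81 and 9.01 CPM with DMSO and at 3.77, 3.99, 3.58, 3.55 and 5.04 CPM with FICZ (edgeR, adjusted p across numbers = 0.288, and 0.447 without DMSO replicate 5). Nfil3, which encodes a repressor at the same D-boxes, had 12.6 ± 1.1 CPM with DMSO and 13.8 ± 1.33 CPM with FICZ (SD, n = 5), and was higher with FICZ in 5 of 5 pairs by between 0.02 and 0.37 log2 units (edgeR, adjusted p = 0.999). Across numbers Nfil3 had an adjusted p of 0.538 (edgeR), and 0.614 without DMSO replicate 5. Of these 4 factors, 1 was called across numbers (Dbp), against 1.80% of all genes, 2 passed at an unadjusted p of 0.05, against 19.6%, and 0 were called between arms, against 0.0211%, with a median log2 fold change of -0.28. That median was -0.22 with the replicate block, -0.07 without DMSO replicate 5 and 0.04 with the Alb covariate. Leaving out DMSO replicate 5 alone keeps FICZ replicate 5, so that fit also takes in the difference between numbers. Within pairs 1 to 4 the mean FICZ minus DMSO difference was -0.14 log2 units for Tef and -0.12 for Hlf. Tef was lower in all 5 pairs, as were 2.81% of all genes, with differences from -0.363 to only -0.002 log2 units.

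Among 7 accessory transcription factors of the loop, 0 were called between arms or across numbers, against 0.0211% and 1.80% of all genes, and 2 passed the test across numbers at an unadjusted p of 0.05 (Ciart and Rora), against 19.6%, with a median log2 fold change between arms of -0.07 (-0.02 without DMSO replicate 5 and 0.06 with the Alb covariate). Ciart (chromosome 3, 95878503 to 95882251) encodes CHRONO, a repressor of CLOCK and BMAL1. With DMSO it was at 2.07, 2.23, 1.58, 2.95 and 3.61 CPM and with FICZ at 2.01, 1.63, 1.21, 2.86 and 3.28 CPM, with 48 to 176 counts per library. Number 5 was the highest and number 3 the lowest in both arms, a 2.44-fold range (edgeR, adjusted p = 0.0782, and 0.0760 without DMSO replicate 5). Ciart passed in DESeq2 (adjusted p = 0.00923) and with the Alb covariate (0.0191). Between arms it was lower with FICZ in all 5 pairs, as were 2.81% of all genes. The differences ran from -0.44 to -0.04 log2 units (edgeR, adjusted p = 0.999). Of the 50-base words in its transcripts, 11.9% occur in those of other genes, so its counts are less certain. Its window (RefSeq, GRCm38.p6, chr3:95882179-95882478, minus strand) is shown because it held 3 copies of the E-box CACGTG, at 116, 58 and 44 bases before the start. The capitals mark these and a GCGTG, and 0.0883% of all windows held 3 or more E-boxes.
Ciart: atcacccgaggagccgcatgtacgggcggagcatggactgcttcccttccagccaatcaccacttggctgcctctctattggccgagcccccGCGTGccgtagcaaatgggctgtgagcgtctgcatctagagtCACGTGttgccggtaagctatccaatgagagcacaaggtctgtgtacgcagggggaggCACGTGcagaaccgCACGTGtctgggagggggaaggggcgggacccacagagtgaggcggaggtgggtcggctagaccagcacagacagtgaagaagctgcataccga

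Rora, the ROR gene that acts at the REV-ERB element, was at 22.3, 24.5, 28.4, 30.2 and 31.6 CPM with DMSO and at 20.8, 24.1, 29.6, 25.5 and 30.0 CPM with FICZ. Replicate 5 was the highest and replicate 1 the lowest in both arms, the same positions as for Nr1d2 (edgeR, adjusted p across numbers = 0.132, and 0.0973 without DMSO replicate 5), and Rora passed with the Alb covariate (0.0397). Bhlhe40 and Bhlhe41 encode the E-box repressors DEC1 and DEC2. Bhlhe40 had 113 ± 8.83 CPM with DMSO and 108 ± 8.44 CPM with FICZ, and Bhlhe41 had 37.0 ± 3.23 and 35.3 ± 3.81 CPM (SD, n = 5). Neither passed the test between arms or across numbers (edgeR, adjusted p = 0.742 for Bhlhe40 and 0.259 for Bhlhe41). The counts of Bhlhe41 are less certain, since 16.4% of its 50-base words occur in transcripts of other genes and 13.7% of its exon bases lie under Gm43909 on the opposite strand.

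The remaining companion lists are given beside the shares of all genes, which were 0.0211% called between arms, 1.80% called across numbers and 19.6% at an unadjusted p of 0.05 across numbers. None of 18 clock kinases, phosphatases and ubiquitin ligases was called in either test, and 2 passed the test across numbers at an unadjusted p of 0.05 (median log2 fold change between arms -0.01). Prkaa2, a catalytic subunit of AMP-activated kinase, had the smallest p of that list across numbers (edgeR, adjusted p = 0.0940, and 0.0233 without DMSO replicate 5), with number 3 the highest and number 4 the lowest in both arms. Next to it was Csnk1e, whose kinase phosphorylates PER proteins, with 0.215. Of 11 cofactors and NAD enzymes, 0 were called and 1 passed across numbers at an unadjusted p of 0.05, with a median log2 fold change of 0.08 (0.05 without DMSO replicate 5 and 0.02 with the Alb covariate) and the smallest adjusted p at Wdr5 (0.211), Tipin (0.301) and Kmt2a (0.355). A list of 14 genes covered the response to serum, cAMP or glucocorticoid, the signals that set the phase of cultured cells. It included Nr3c1 and Creb1, which mediate such signals. Of these 14 genes, 0 were called and 4 passed across numbers at an unadjusted p of 0.05. The median log2 fold change of the list was 0.03 (-0.01 without DMSO replicate 5 and -0.05 with the Alb covariate). Tsc22d3, which encodes the glucocorticoid-induced GILZ, was highest in number 5 and lowest in number 3 in both arms, without passing the threshold (edgeR, adjusted p = 0.111, and 0.160 without DMSO replicate 5). Egr1 (0.115) and Sgk1 (0.151) followed in that list, and both passed without that library (0.0308 and 0.00928). Of 16 clock-controlled output genes, 0 were called and 4 passed across numbers at an unadjusted p of 0.05, with a median log2 fold change of -0.08 (-0.04 without DMSO replicate 5 and -0.02 with the Alb covariate) and the smallest adjusted p at Cdkn1a (0.0706, and 0.0327 without DMSO replicate 5), Slc46a3 (0.180) and Lonrf3 (0.226). In DESeq2, where 11.2% of all genes passed across numbers, Tsc22d3 (adjusted p = 0.00821), Egr1 (6.34e-05) and Sgk1 (0.00287) passed. Prkaa2 (0.00321), Cdkn1a (0.000581) and Slc46a3 (0.0197) passed there too. With the Alb covariate in edgeR, Prkaa2 (0.0088), Egr1 (0.00817), Sgk1 (0.00522) and Cdkn1a (0.00513) passed, against 12.5% of all genes.

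On the AHR side, the treatment was plain in the target genes. Cyp1a1, the classical AHR target, was at 35.2, 26.9, 42.9, 11.6 and 17.2 CPM with DMSO and at 317, 287, 355, 144 and 172 CPM with FICZ. All FICZ libraries lay above all DMSO libraries, with a log2 fold change of 3.25 (SE 0.38, edgeR, adjusted p = 0.0189). Leaving out 1 library kept the call in 5 of 10 fits, with adjusted p-values up to 0.0924, and 9 of 11 other alternatives kept it, while the log2 fold change stayed between 3.06 and 3.49. Cyp1a1 also followed the numbers (edgeR, adjusted p = 0.0191), with number 3 the highest and number 4 the lowest in both arms, whereas Dbp was lowest in number 3. Nqo1, another AHR target, likewise passed the test across numbers (edgeR, adjusted p = 0.0228). Of the 5 listed targets, all had positive log2 fold changes, with a median of 0.91, and 3 passed the threshold (Cyp1a1, Ahrr and Tiparp). With the replicate block Nqo1 also passed (log2 fold change 0.60, edgeR, adjusted p = 0.0352), while Tiparp was at 0.0509.

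Of the 12 bHLH-PAS genes outside the clock, the relatives of Arntl, Clock and Npas2, 9 passed the filter. Ahrr, which encodes the repressor of AHR and stands in both lists, was called between arms with a log2 fold change of 1.66 (edgeR, adjusted p = 0.00324). None was called across numbers by edgeR with all libraries, where 4 passed at an unadjusted p of 0.05 and the smallest adjusted p-values were those of Epas1 (0.0681, and 0.0279 without DMSO replicate 5), Hif1a (0.160) and Npas4 (0.177). Epas1 (adjusted p = 0.000343) and Hif1a (0.043) passed in DESeq2, against 11.2% of all genes. With the Alb covariate in edgeR, Epas1 (0.0107) and Ahr (0.0475) passed, against 12.5%. Ahr itself was at 15.2, 13.6, 15.0, 11.3 and 16.4 CPM with DMSO and at 8.64, 11.9, 14.4, 8.36 and 9.29 CPM with FICZ. It was lower with FICZ in 5 of 5 pairs, with a log2 fold change of -0.44 (SE 0.16), an adjusted p of 0.999 (edgeR) and an exact two-sided permutation p of 0.0476 before adjustment. Arnt, the partner of AHR, was at 86.1 ± 8.25 CPM with DMSO and 86.0 ± 8.8 CPM with FICZ (SD, n = 5).

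Markers of other cell types were set beside the differences between numbers. The 5 mature adipocyte markers (4 tested, with Lep at 0 counts in all 10 libraries and Plin1 the most abundant) summed to 8.29, 6.03, 12.8, 21.1 and 19.9 CPM in DMSO replicates 1 to 5 and to 7.19, 4.16, 10.9, 21.9 and 16.8 CPM in FICZ replicates 1 to 5. Numbers 4 and 5 were thus the highest in both arms, as for Per3 and Dbp, but number 2 was the lowest, where Dbp had number 3. Adipoq (edgeR, adjusted p = 0.0183, and 0.00637 without DMSO replicate 5) and Plin1 (0.0311 and 0.00765) passed the test across numbers, against 1.80% of all genes. Of the 8 ASPC markers 1 passed, Dpp4 (edgeR, adjusted p = 0.0467, and 0.024 without DMSO replicate 5). Without that library Col1a1 (0.0257), Col3a1 (0.0300) and Pdgfrb (0.0406) also passed in edgeR, against 5.54% of all genes in that fit. Col1a1 (0.00032) and Pdgfrb (0.018) passed in DESeq2 too, where 11.2% of all genes did. None of the markers of endothelial, immune, mesothelial, dividing or hepatocyte origin passed in edgeR with all libraries and no covariate. With the Alb covariate in edgeR, where 12.5% of all genes passed across numbers, the immune marker Cd68 (adjusted p = 0.0165) and the hepatocyte marker Trf (0.0122) passed. Col1a1 (0.0129), Col3a1 (0.0268), Pdgfrb (0.0383) and Retn (0.0381) passed in that fit too, and Adipoq, Plin1 and Dpp4 kept their calls. Between arms, 7 of the 8 hepatocyte markers passed at an unadjusted p of 0.05, against 4.82% of all genes, and 0 of 8 with the replicate block. Their median log2 fold change of -1.12 was -0.49 without DMSO replicate 5. The 4 immune markers tested were all negative, with a median of -0.78 (-0.32 without DMSO replicate 5). So were the 5 endothelial markers, with a median of -0.56 (-0.31 without that library and -0.61 with the replicate block). In neither list did a marker pass between arms at an unadjusted p of 0.05 without the block. With the block, 2 of the 5 endothelial and 0 of the 4 immune markers passed at that level in edgeR, where 663 of all 14251 genes did. None of them passed after adjustment. Medians were -0.03 for ASPC, -0.04 for mature adipocyte, -0.04 for mesothelial and 0.01 for dividing-cell markers. The part of these cell types in the levels of Per3, Dbp or Arntl was not tested.

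The genes whose pattern over the 10 libraries lay nearest to a member were ranked by the root mean square (RMS) difference of log2 CPM after each arm was centred. For Per3, which itself had an RMS of 0.399, they were Klhl24 (0.087), Myorg (0.094), Sfrp2 (0.100), Pxylp1 (0.102) and Sesn3 (0.108). Tef ranked 111, Ciart 324, Hlf 805 and Dbp 1046 of the other genes tested, the size of a gene's range counting in this measure as well as its direction. For Arntl, with an RMS of 0.284, the nearest were Etv4 (0.055), Phc2 (0.058), Nob1 (0.060), Nifk (0.066) and Gpr39 (0.068), and Dbp ranked 13403. For Npas2, with an RMS of 0.274 and few counts, they were Il34 (0.122), Ercc8 (0.124), Adra1b (0.128), Jazf1 (0.134) and Cldn15 (0.154). Libraries, depth and number are shared by all of these genes, and the ranks carry no test.

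The promoter windows of the members were searched on both strands for 5 strings of letters. RefSeq windows, of 250 bases before and 50 after a start, were found for 9 of the 10 members, in 13 windows. The E-box CACGTG occurred in 2 of the 9 (Per1 and Cry1), against 7.15% of all 32851 windows, and CACGTT in 3 (Cry1, Cry2 and Nr1d1), against 4.68%. TTATGTAA was found in 1 (Per3), against 0.94%, and TAGGTCA in 1 (Arntl), against 2.61%. GCGTG, the core bound by AHR and ARNT, was found in 8 of the 9, all except Arntl, against 32.39% of windows, and genes with several windows had more chances. No match to one string overlapped a match to another. Such a match describes letters in a window and is neither a site nor a cause, and its absence says only that the letters are not in these 300 bases.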

How the data were processed

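Bulk RNA sequencing libraries of ASPCs, 5 with DMSO and 5 with FICZ, were grouped by their labels. Per the labels and the paper's methods, the authors aligned reads with STAR 2.7.7 to mm10. The authors deposited raw counts for each gene symbol, with no normalization. The counting program and its use of strand were not given in the sources used here. All per-sample columns were used. There were 8 rows with repeated symbols, with no count above 5.

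Counts were tested in R 4.3.3 with edgeR 4.0.16 (quasi-likelihood, TMM, robust dispersions, filterByExpr), and p-values were adjusted by Benjamini-Hochberg over the 14251 genes tested, with a threshold of 0.05. The fits were treatment alone, and treatment with replicate number, in which the 4 number coefficients were tested together. Log2 CPM used a prior count of 2. Same-numbered libraries deviated together from their arm means in each of the 5 pairs (Pearson r across 14251 genes between 0.154 and 0.317). For different numbers r had a mean of -0.06 and a range of -0.395 to 0.368. Deviations from an arm mean cancel out over the arm, so a positive mean for same numbers brings a negative one for different numbers. The latter mean is therefore no separate evidence of pairing. The numbers were taken to pair the libraries because all 5 same-number values were above 0.1, although some libraries correlated more with another number. The labels do not say what they mark. Alternatives were DESeq2 1.42.0, limma-voom (limma 3.58.1), other scalings and filters, the replicate block, the level of Alb as a covariate, and leaving out each library or pair. Leaving out DMSO replicate 5 alone in the test across numbers was added after seeing the data.

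Members and companion lists were chosen with earlier results of these data known. The genes named were the 10 members, 12 preset companions, the 3 smallest p-values across numbers in each list, any listed gene called between arms, and the 5 nearest genes to Per3, Arntl and Npas2, the members with the largest SD. One gene that this rule names is not reported here. Sphk2 and Thra were named for their overlap. Exon lengths and coordinates came from GENCODE for GRCm38, and promoter windows from RefSeq.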

Additional observations from a re-analysis of the deposited data

How the results depend on the processing

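Between arms, edgeR called 3 genes, DESeq2 16, edgeR with the replicate block 8 and DESeq2 with the block 26, and leaving out 1 library gave 1 to 4. The members called were 0 in all of these fits, and among the genes named the replicate block added Nqo1 (adjusted p = 0.0352), left Tiparp out (0.0509) and changed no other call. Across numbers, 257 genes were called by edgeR, 1492 by DESeq2, 1786 with the level of Alb as a covariate, 792 without DMSO replicate 5, and 0 to 433 when a pair was left out. At an unadjusted p of 0.05 the fits without pair 1, 2 and 4, with 0 called, had 2377, 2180 and 2280 genes. Members called across numbers were 1 in edgeR, 4 in DESeq2, 5 with the Alb covariate, 2 without DMSO replicate 5, and 0 to 2 when a pair was left out. Other scalings, filters, dispersions without the robust option and limma-voom kept Per3 as the 1 member called.

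With the Alb covariate the log2 fold change between arms turned to -0.08 for Arntl, 0.17 for Per2, 0.12 for Per3, 0.03 for Nr1d1, 0.07 for Nr1d2, 0.10 for Hlf, 0.06 for Ciart and 0.02 for Arnt. With 1 library left out it ranged from -0.06 to 0.15 for Arntl, -0.11 to 0.08 for Npas2, -0.21 to 0.04 for Per2, -0.37 to 0.05 for Per3, -0.02 to 0.18 for Cry1, -0.15 to 0.01 for Nr1d1, -0.20 to 0.05 for Nr1d2 and -0.06 to 0.05 for Arnt. The sign held but the size varied for Clock (0.02 to 0.18), Per1 (-0.23 to -0.09) and Cry2 (-0.09 to -0.01). It also held for Dbp (-0.65 to -0.23), Tef (-0.29 to -0.06), Hlf (-0.54 to -0.08) and Ciart (-0.38 to -0.01). The cause was not tested. Npas2, Per2, Hlf and Ciart had few counts, which limits their precision. Each pair left out removes a number, so the test across numbers then rests on fewer libraries.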
